A study of Mus musculus with 12 samples.

Results

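The genes that make sterols and fatty acids were followed through activated mouse CD4+ T cells that received a lactic acid bacterium, a calcineurin inhibitor, or both. A list of 32 gene symbols was matched in the expression table, and all 32 were found among its 45777 genes. They comprised 7 genes of the first steps from acetyl-CoA units to farnesyl diphosphate, 11 of the squalene and sterol steps, 4 regulators, 6 of fatty acid synthesis and 4 desaturases. The genes were chosen by role, with earlier results of these data known. All 32 were also among the 23585 genes tested.

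RNA of 12 libraries in 4 groups of 3 was sequenced. All 4 groups were labelled as CD4+ T cells from the spleens of wild-type mice aged 7 weeks, and all 4 were stimulated with anti-CD3 at 0.5 ug/ml for 3 days, so no unstimulated cells stood beside them. The anti-CD3 group had this stimulation alone, the L. acidophilus group had Lactobacillus acidophilus in addition, the FK506 group had FK506 (tacrolimus, which blocks calcineurin) in addition, and the combination group had both. The age is the labels', and the study's methods give an older age for its mice. The labels give the strain as Balb/c and the methods give B6 for the sequenced cells. The methods name CD4-coated magnetic beads for the isolation and heat for the inactivation of the bacterium in the other cultures of the study, and the doses used in the sequenced cultures are not given in the sources used here. Neither source says whether the 3 libraries of a group came from separate animals or cultures, so the p-values measure the spread between these libraries, which may be technical.

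Cholesterol is built through the mevalonate pathway, in which acetyl-CoA units are joined to isoprenoids, isoprenoids to squalene, and squalene is closed and trimmed to the sterol. Transcription of most of these enzymes, and of the enzymes of fatty acid synthesis and desaturation, is driven by the SREBP factors, which SCAP carries out of the endoplasmic reticulum when sterols are low and INSIG proteins hold back when sterols are plentiful. T cells that are activated and begin to divide are known to raise both branches in order to build membrane.

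Library totals lay between 45416397 and 64658165 counts, with a median of 51608408.5, and the 32 genes took 0.215% to 0.781% of them. The replicate 1 libraries were the deepest of their groups, at 63113961 counts or more, against 54245588 or fewer in the others. The CD4 T cell markers were present in every library, at a summed level of 1390 to 2240 FPKM over 8 genes (fragments per kilobase of transcript, scaled to the library, the deposited level, which can be compared between genes). Against anti-CD3 alone 3 of the 8 fell with FK506 (Cd2, Cd5 and Lck, named after their values were seen), and 3 rose and 1 fell with the combination. Of all 23585 genes tested, 4483 were called in either direction with FK506 and 10209 with the combination, each against anti-CD3 alone. Of these 2077 and 5133 fell. Markers of other cells moved with the treatments. The 9 B cell markers summed to between 38.9 and 63.7 FPKM with anti-CD3 alone, 26.2 and 37.7 when L. acidophilus was added, 235 and 477 when FK506 was added and 137 and 164 with the combination, and against anti-CD3 alone 8 of 9 rose with FK506 and 7 of 9 with the combination. The 9 myeloid markers summed to 3.02 to 4.57, 4.02 to 8.47, 9.04 to 25.3 and 69.5 to 90.8 FPKM in the same order. Of these 7 were tested, of which 6 rose with FK506 and 7 with the combination, and S100a8 was listed at 0 in every library. The 8 proliferation genes summed to 506 to 613, 615 to 689, 545 to 681 and 287 to 412 FPKM, and 7 of them fell with the combination and none with FK506. The 2 CD8 genes summed to 2.21 to 9.02 FPKM over all libraries. Of them Cd8a rose with FK506 (log2 2.38, adjusted p = 0.0123 in edgeR), from 0.103, 0.282 and 0.260 FPKM with anti-CD3 alone to 2.18, 0.868 and 0.641. Cd8b1, the more abundant, did not pass with FK506 (log2 0.28, adjusted p = 0.588 in edgeR), with means of 3.86 FPKM with anti-CD3 alone and 5.07 with FK506. The part of these differences in the results that follow was not tested, and in RNA from whole cultures fewer cells of a type and less RNA per cell cannot be told apart.

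Promoter sequence was found for 25 of the 32 genes in the RefSeq tables of GRCm38.p6. Fdps, Scd1, Stard4, Sqle, Fdft1, Fads1 and Scd2 were not among them. For 3 genes the 250 bases before the gene start are given 5′ to 3′ on the strand of the gene. Hmgcs1 was the one gene of the 25 that held the sterol regulatory element as searched here, Idi1 was one of the genes that answered L. acidophilus differently with and without FK506, and Fads2 had the largest difference of the 32. Capitals mark TCACNCCAC, the sterol regulatory element, and CCAAT, the box bound by NF-Y, either of which may stand on the opposite strand, where CCAAT reads ATTGG.
Hmgcs1, chr13:119690101-119690350 (+): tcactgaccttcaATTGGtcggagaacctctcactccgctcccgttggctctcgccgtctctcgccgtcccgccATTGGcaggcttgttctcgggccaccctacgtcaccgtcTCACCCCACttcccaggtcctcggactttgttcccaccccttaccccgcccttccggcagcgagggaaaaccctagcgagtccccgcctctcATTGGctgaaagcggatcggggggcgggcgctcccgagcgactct
Idi1, chr13:8885356-8885605 (+): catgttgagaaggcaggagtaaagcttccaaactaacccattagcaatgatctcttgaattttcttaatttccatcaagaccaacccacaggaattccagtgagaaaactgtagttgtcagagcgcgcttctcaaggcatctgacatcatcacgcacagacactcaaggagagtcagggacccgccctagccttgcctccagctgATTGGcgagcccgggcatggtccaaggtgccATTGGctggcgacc
Fads2, chr19:10101504-10101753 (-): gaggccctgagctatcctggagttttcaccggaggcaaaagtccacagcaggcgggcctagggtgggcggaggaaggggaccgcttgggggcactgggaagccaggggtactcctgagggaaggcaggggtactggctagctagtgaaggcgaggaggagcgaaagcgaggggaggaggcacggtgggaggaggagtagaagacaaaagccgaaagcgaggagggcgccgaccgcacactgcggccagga
None of the 3 windows overlapped an annotated gene. The sterol regulatory element began 137 bases before the start of Hmgcs1 and did not overlap any of its CCAAT boxes, which began 237, 176 and 45 bases before the start. Idi1 held CCAAT at 45 and 14 bases before its start, and Fads2 held neither motif. Over windows of this length, TCACNCCAC was found in 1 of 25 genes (4%) against 1.22% of 27025 genes in the tables, and CCAAT in 18 of 25 (72%) against 37.5% of all genes. A match describes the letters and is not a bound site.

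Most of the 32 genes were lower with the combination. Against anti-CD3 alone, 31 of the 32 genes fell with the combination at an adjusted p under 0.05 in edgeR's quasi-likelihood test with Benjamini-Hochberg adjustment over all genes, and none rose. Of all 23585 genes, 21.8% fell in this comparison. A fall of at least 2-fold was found for 24 of the 32, against 10.8% of all genes. The median log2 fold change of the 32 was -1.52, beside 0.02 for all genes tested. Every combination library lay below every anti-CD3 library in FPKM for 29 of the 32 genes, which holds for 18.8% of all genes, and the exceptions were Ebp, Sc5d and Scap. The 7 proliferation genes that fell in the same comparison belonged to a list of 8 with a median of -1.001. With replicates 2 and 3 alone, without the deepest libraries, 31 of the 32 were again called, with Ebp in place of Scap. In the combination group these libraries were far closer to each other than to replicate 1, so this fit is a weak check of the spread. By limma on log2(FPKM + 1) 28 fell, without Sc5d, Dhcr7 and Scap.

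**Figure D1:**
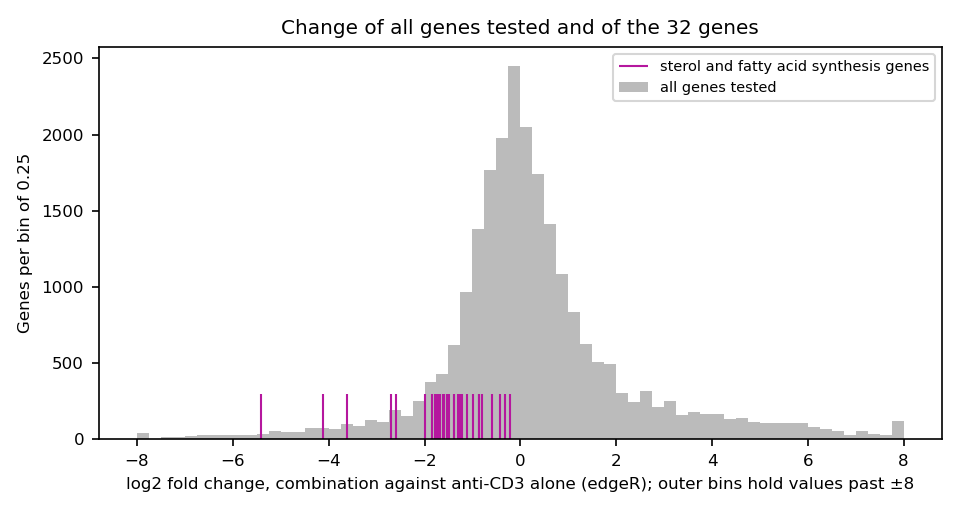
The histogram shows the log2 fold change of all 23585 genes tested, combination against anti-CD3 alone (x axis, edgeR), as genes per bin (y axis), and the vertical lines mark the 32 sterol and fatty acid synthesis genes. All 32 lines lie below 0, from -5.41 to -0.22, while the bulk of genes is centred near 0.02.

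The summed FPKM of the 32 genes was 1537 ± 129.7 (SD, n = 3) with anti-CD3 alone, 1281 ± 119 with L. acidophilus, 901.5 ± 149 with FK506 and 540.8 ± 27.7 with the combination. The combination thus held 35.2% of the anti-CD3 level, FK506 58.7% and L. acidophilus 83.3%. Each combination library, at 509 to 558 FPKM, lay below each FK506 library, at 734 to 1021. The order anti-CD3, L. acidophilus, FK506, combination from high to low was found in the group means of 25 of the 32 genes, and the combination was lowest for 31, with Acss2 as the exception. Anti-CD3 alone was highest for 29, with Ebp, Scap and Fasn as the exceptions. Among the FK506 libraries replicate 2 was lowest of its group for 28 of the 32 genes, and among the combination libraries replicate 1 for 21. Of the anti-CD3 libraries, the shared reference, replicate 1 was highest for 23, and of the L. acidophilus libraries replicate 1 was lowest for 19. Without anti-CD3 replicate 1, 31 of the 32 genes fell with the combination against anti-CD3 alone in edgeR, and 22 with FK506.

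**Figure D2:**
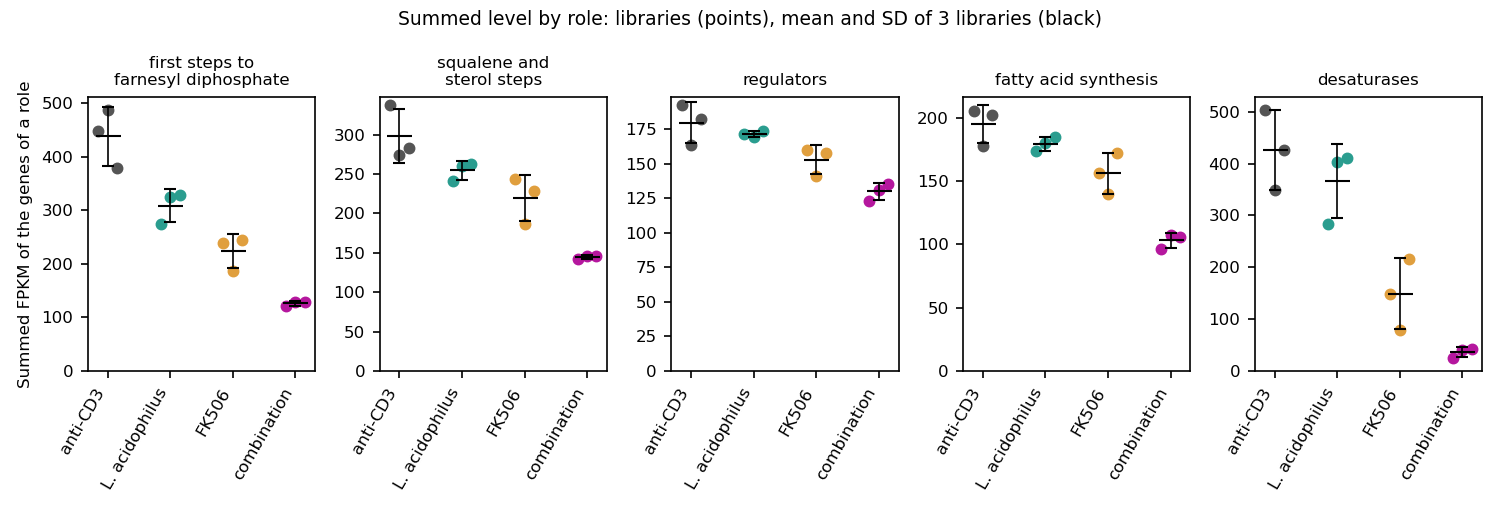
Each panel shows the summed FPKM (y axis, from 0) of the genes of one role in each of the 12 libraries (points, by group on the x axis), with the mean and SD of 3 libraries in black. The desaturases went from a mean of 426 FPKM with anti-CD3 alone to 36.4 with the combination, and the regulators from 179.7 to 129.9.

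The first steps of the pathway fell as a block. All 7 genes fell with the combination, each by at least 2-fold, and 6 of 7 fell with FK506, with Idi1 as the exception. Of all genes 21.8% fell with the combination, 10.8% by at least 2-fold, and 8.81% fell with FK506. Their summed FPKM was 438 ± 54.4 (SD, n = 3) with anti-CD3 alone, 309 ± 30.6 with L. acidophilus, 224 ± 32.4 with FK506 and 126 ± 4.35 with the combination. Fdps, which joins isoprene units to farnesyl diphosphate and was the most abundant of the 7, measured 179, 258 and 152 FPKM with anti-CD3 alone, 105, 113 and 117 with L. acidophilus, 78.8, 52.5 and 78.3 with FK506, and 37.3, 35.2 and 33.3 with the combination. Its 4 groups did not overlap and stepped down in that order, and its log2 fold change was -2.70 ± 0.22 (SE, adjusted p = 8.94e-06) with the combination in edgeR, a fall of 6.51-fold, and -1.62 ± 0.21 (SE, adjusted p = 0.000542) with FK506. Mvd, which makes isopentenyl diphosphate, measured 32.7, 31.7 and 21.1 FPKM with anti-CD3 alone, 15.2, 15.3 and 16.9 with L. acidophilus, 14.5, 10.1 and 12.98 with FK506, and 8.23, 8.69 and 8.17 with the combination. All 9 treated libraries lay below the 3 anti-CD3 libraries, and the log2 fold change with the combination was -1.99 ± 0.19 (SE, adjusted p = 1.76e-05) in edgeR. Pmvk, the kinase just before Mvd, measured 68.4, 44.5 and 42.4 FPKM with anti-CD3 alone, 39.8, 51 and 43.3 with L. acidophilus, 26.8, 22.1 and 27.9 with FK506, and 16.01, 17.2 and 17.5 with the combination. Here L. acidophilus alone overlapped with anti-CD3, while FK506 and the combination each lay below both, at log2 -1.14 ± 0.19 and -1.84 ± 0.19 (SE).

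Mvk, the first kinase of mevalonate, measured 11.6, 24.01 and 11.9 FPKM with anti-CD3 alone, 7.88, 9.97 and 9.29 with L. acidophilus, 9.33, 9.31 and 9.30 with FK506, and 6.28, 4.68 and 5.98 with the combination. Anti-CD3 replicate 2 stood well above the other 2 of its group, and without it the log2 fold change with the combination was -1.24 in place of -1.70, with the call kept. Acat2, an acetoacetyl-CoA thiolase at the head of the pathway, measured 38.6, 29.1 and 28.9 FPKM with anti-CD3 alone, 21.3, 21.2 and 23.3 with L. acidophilus, 21.7, 20.4 and 23.1 with FK506, and 11.8, 11.8 and 11.3 with the combination. The L. acidophilus and FK506 libraries overlapped and lay between the other groups, and the fall with the combination was 3.20-fold (adjusted p = 8.27e-06, edgeR). Of the 50-base stretches of its transcripts, 45.9% also occur in another gene, mainly Acat3, which held counts of up to 35.5% of those of Acat2 and had a log2 fold change of -0.76, so reads could be split between the pair and the values of Acat2 are uncertain to that extent. Hmgcs1, the HMG-CoA synthase whose promoter held the sterol regulatory element, fell by 3.01-fold with the combination and 1.80-fold with FK506 (adjusted p = 4.51e-05 and 0.00700, edgeR).

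Idi1 had a different pattern over the groups. This isomerase, which makes dimethylallyl diphosphate, measured 44.8, 40.98 and 47.7 FPKM with anti-CD3 alone, 38.5, 44.5 and 45.1 with L. acidophilus, 48.3, 36.1 and 46.5 with FK506, and 19.9, 22.7 and 23.4 with the combination. The L. acidophilus and FK506 libraries overlapped with anti-CD3 alone, and the 3 combination libraries lay apart below all 9 others. The log2 fold change was -0.14 ± 0.12 (SE, adjusted p = 0.626) with L. acidophilus, -0.14 ± 0.12 (SE, adjusted p = 0.448) with FK506 and -1.22 ± 0.12 (SE, adjusted p = 2.06e-05) with the combination in edgeR. Of the 50-base stretches of Idi1 and Fdps 21.3% and 86.4% also occur in gene copies, and the copies listed in the table held at most 0.0594% and 1.06% of their counts. Gm13502 and Gm43738, the copies that share most with Idi1 and Fdps, were not analysed here, so that the values of both genes are uncertain to that extent. For Fdft1 and Acaca the shares were 10.9% and 52.6%, with copies at up to 0.796% and 5.05% of the counts, and the other 27 genes shared under 5%.

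**Figure D3:**
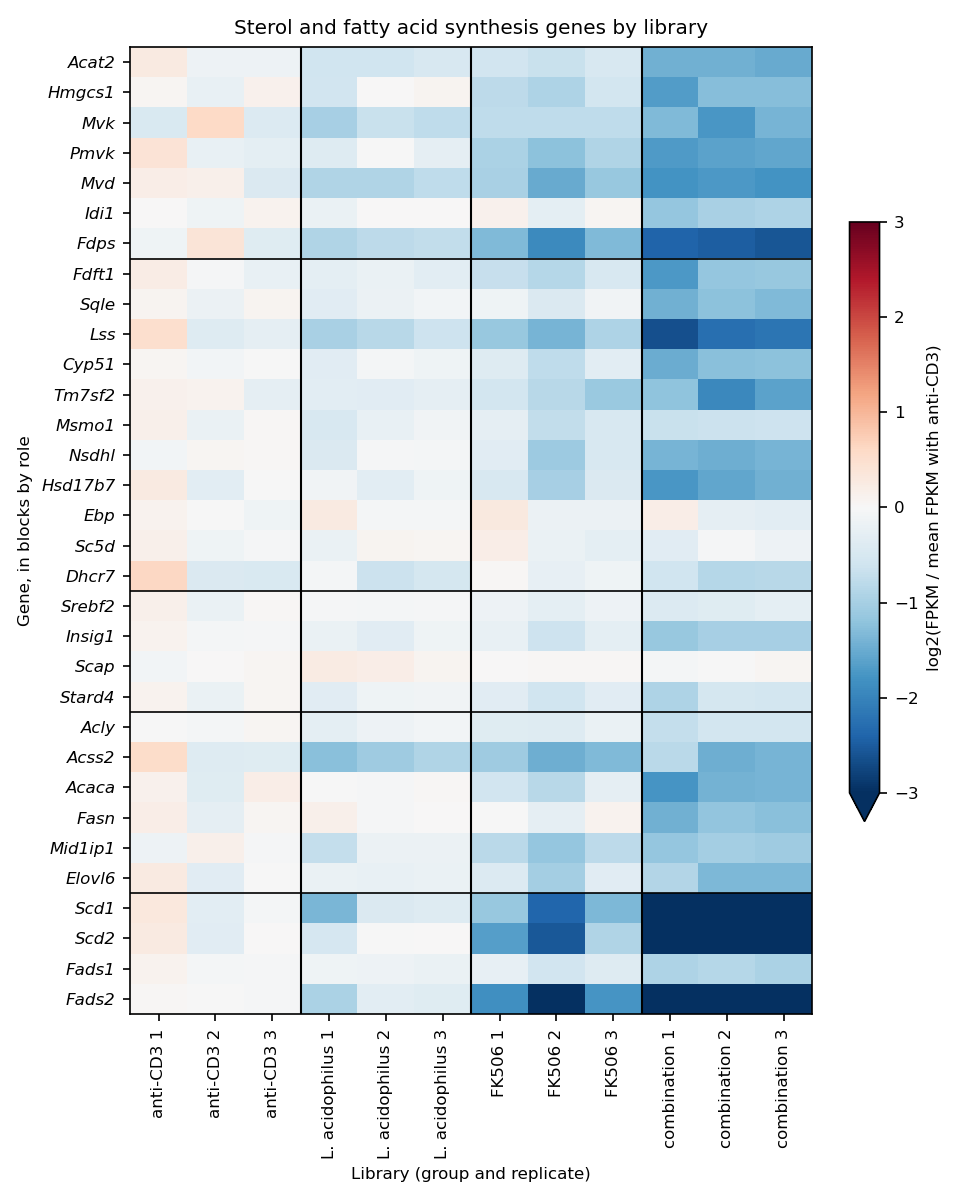
The heat map shows log2 of each library's FPKM over the mean FPKM with anti-CD3 alone (colour, limits -3 to 3) for the 32 genes (y axis, in blocks by role) in the 12 libraries (x axis, by group and replicate). The combination columns are below 0 for every gene except Ebp and Scap, which each have 1 value above 0, and FK506 replicate 2 is the darkest FK506 column.

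Of the squalene and sterol steps most also fell. With the combination 10 of 11 genes fell, 7 of them by at least 2-fold, and with FK506 7 of 11 fell. The shares of all genes were 21.8%, 10.8% and 8.81%. Their summed FPKM was 298 ± 34.4 (SD, n = 3) with anti-CD3 alone, 255 ± 12.0 with L. acidophilus, 219.6 ± 29.7 with FK506 and 145 ± 2.53 with the combination, which is 48.6% of the anti-CD3 level. Lss, which closes the ring to lanosterol, measured 31.9, 17.3 and 18.7 FPKM with anti-CD3 alone, 11.5, 12.7 and 14.7 with L. acidophilus, 10.3, 8.65 and 11.9 with FK506, and 3.62, 4.74 and 4.93 with the combination. Each treated library was below each anti-CD3 library, and its log2 fold change was -2.59 ± 0.23 (SE, adjusted p = 1.28e-05) with the combination in edgeR, a fall of 6.04-fold. Hsd17b7, a ketoreductase of the demethylation at carbon 4, measured 11.8, 7.89 and 9.67 FPKM with anti-CD3 alone, 9.11, 7.91 and 8.93 with L. acidophilus, 6.96, 4.94 and 7.24 with FK506, and 2.93, 3.30 and 3.61 with the combination. With L. acidophilus it stayed within the range of anti-CD3 alone, and with the combination it fell by 3.45-fold (adjusted p = 2.17e-05, edgeR). Tm7sf2, a sterol reductase, measured 11.9, 11.7 and 9.01 FPKM with anti-CD3 alone, 8.79, 8.56 and 9.04 with L. acidophilus, 7.40, 6.08 and 5.05 with FK506, and 4.72, 2.83 and 3.59 with the combination. The combination libraries lay below all others, and the log2 fold change was -1.75 ± 0.21 (SE, adjusted p = 6.91e-05) in edgeR.

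Sqle, the squalene epoxidase, measured 39.3, 33.02 and 39.02 FPKM with anti-CD3 alone, 29.6, 33.04 and 34.99 with L. acidophilus, 33.8, 27.6 and 34.3 with FK506, and 13.8, 15.8 and 14.8 with the combination. As with Idi1, the 3 combination libraries lay below all 9 others while FK506 overlapped with anti-CD3 alone, and the log2 fold change was -0.33 ± 0.11 (SE, adjusted p = 0.0639) with FK506 against -1.53 ± 0.12 (SE, adjusted p = 7.42e-06) with the combination in edgeR. Fdft1, which makes squalene, Cyp51, the lanosterol demethylase, and Nsdhl, a dehydrogenase of the demethylation at carbon 4, fell by 2.84-fold, 2.90-fold and 3.08-fold with the combination. Msmo1, the oxidase of the same demethylation, fell by 1.81-fold, and from FK506 to the combination its log2 fold change was -0.26 ± 0.14 (SE, adjusted p = 0.216) in edgeR.

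Ebp and Sc5d had the smallest differences of the sterol steps. Ebp, the isomerase that shifts the sterol double bond, measured 23.4, 21.6 and 19.9 FPKM with anti-CD3 alone, 26.2, 20.9 and 20.8 with L. acidophilus, 26.4, 19.02 and 19.2 with FK506, and 24.8, 17.8 and 17.3 with the combination. All 4 groups overlapped, replicate 1 was highest in each, and the log2 fold change with the combination was -0.32 ± 0.18 (SE, adjusted p = 0.183) in edgeR, the one gene of the 32 that did not pass. Against L. acidophilus alone Ebp also did not pass, at -0.30 ± 0.18 (SE, adjusted p = 0.237) in edgeR. It did when the replicate numbers were fitted as a block in edgeR (-0.31, adjusted p = 0.0371), although the numbers do not clearly pair these libraries. Sc5d, the desaturase that follows Ebp, overlapped between all 4 groups at 12.6 to 18.4 FPKM and had a log2 fold change of -0.42 ± 0.11 (SE, adjusted p = 0.00863) with the combination in edgeR, a call that was lost without the library scaling factors. Dhcr7, the reductase of the final step, fell by 1.98-fold with the combination (adjusted p = 0.0113, edgeR), with anti-CD3 replicate 1 at 28.7 FPKM far above the other 2 at 13.8 and 13.5. Without that library its log2 fold change was -0.53 in place of -0.99, and limma on log2(FPKM + 1) did not call it (adjusted p = 0.0734).

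All 4 regulators were called lower with the combination, at a median log2 fold change of -0.73, Scap by a narrow margin, where 21.8% of all genes fell. Their summed FPKM with the combination was 72.3% of that with anti-CD3 alone. Srebf2, the SREBP factor that acts mainly on sterol genes, measured 102, 80.8 and 94.3 FPKM with anti-CD3 alone, 89.9, 88.96 and 90.05 with L. acidophilus, 83.3, 75.3 and 82.4 with FK506, and 69.7, 71.3 and 74.8 with the combination. The combination libraries lay below the anti-CD3 libraries, and the log2 fold change was -0.58 ± 0.09 (SE, adjusted p = 0.000409) with the combination and -0.33 ± 0.09 (SE, adjusted p = 0.0311) with FK506 in edgeR. The FK506 call of Srebf2 was lost in 6 of 12 fits that left out 1 library, with adjusted p up to 0.121, and without the scaling between libraries. Insig1, itself a target of SREBP and the protein that holds the SCAP complex back, measured 42.9, 37.9 and 38.6 FPKM with anti-CD3 alone, 34.5, 31.5 and 36.2 with L. acidophilus, 33.9, 25.8 and 32.5 with FK506, and 18.2, 19.8 and 19.8 with the combination. It fell by 2.39-fold with the combination, the one regulator past 2-fold, and by 1.40-fold with FK506 (adjusted p = 1.61e-05 and 0.0132, edgeR).

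Stard4, a carrier of cholesterol between membranes, measured 25.3, 20.6 and 24.6 FPKM with anti-CD3 alone, 18.6, 21.5 and 22.02 with L. acidophilus, 18.6, 15.6 and 18.5 with FK506, and 12.3, 16.3 and 16.04 with the combination. Its log2 fold change was -0.87 ± 0.13 (SE, adjusted p = 0.000218) with the combination and -0.54 ± 0.13 (SE, adjusted p = 0.0123) with FK506 in edgeR, and the combination and FK506 libraries overlapped. Scap, the escort of the SREBP factors, measured 22.8, 24.2 and 25.1 FPKM with anti-CD3 alone, 28.4, 27.6 and 25.4 with L. acidophilus, 24.3, 24.4 and 24.6 with FK506, and 23.1, 23.7 and 24.9 with the combination. Its FPKM values did not separate the combination from anti-CD3 alone, with means of 23.9 and 24.03. The edgeR value of -0.22 ± 0.08 (SE, adjusted p = 0.0342) for Scap came from counts after scaling between libraries, and without that scaling it was -0.01 (adjusted p = 0.9445). The call was also lost in 7 of 12 fits that left out 1 library.

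**Figure D4:**
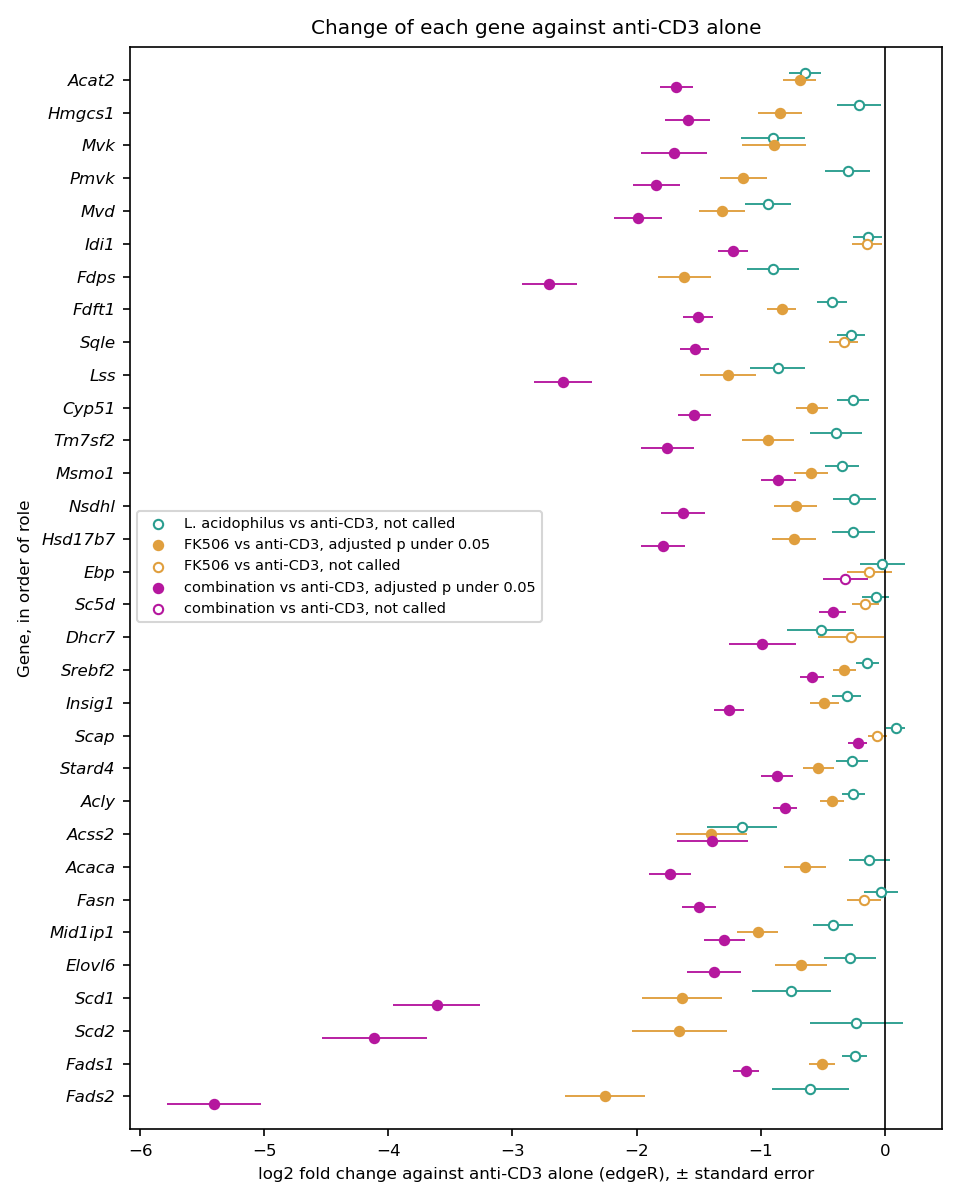
Points show the log2 fold change (x axis, edgeR) of each of the 32 genes (y axis, in order of role) for L. acidophilus, FK506 and the combination, each against the same anti-CD3 libraries, with bars for the standard error and filled points for an adjusted p under 0.05. The combination points lie farthest left for most genes, with Fads2 at -5.41, and no L. acidophilus point is filled.

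The genes of fatty acid synthesis were also lower. All 6 genes fell with the combination, 5 of them by at least 2-fold, and 5 of 6 fell with FK506, with Fasn as the exception. The shares of all genes were 21.8%, 10.8% and 8.81%. Summed FPKM was 195 ± 15.2 (SD, n = 3) with anti-CD3 alone, 179.5 ± 5.49 with L. acidophilus, 156 ± 16.2 with FK506 and 103 ± 5.96 with the combination. Fasn, the fatty acid synthase, measured 65.9, 47.7 and 59.8 FPKM with anti-CD3 alone, 64.6, 56.7 and 57.9 with L. acidophilus, 57.2, 47.9 and 61.8 with FK506, and 21.3, 25.3 and 24.2 with the combination. The first 3 groups overlapped and the combination lay far below them, with log2 fold changes of -0.03 ± 0.14 with L. acidophilus, -0.17 ± 0.14 with FK506 and -1.50 ± 0.14 (SE, adjusted p = 1.50e-05) with the combination in edgeR. Acaca, the acetyl-CoA carboxylase that supplies malonyl-CoA, measured 15.04, 10.7 and 15.8 FPKM with anti-CD3 alone, 13.6, 13.4 and 14.2 with L. acidophilus, 9.28, 7.80 and 11.4 with FK506, and 4.07, 5.15 and 5.28 with the combination. FK506 stood between anti-CD3 alone and the combination, overlapping the former, at -0.64 ± 0.17 (SE, adjusted p = 0.0194), and the combination at -1.73 ± 0.17 (SE, adjusted p = 2.05e-05) in edgeR. The FK506 call of Acaca was lost in 4 of 12 fits that left out 1 library, with adjusted p up to 0.0860, and the combination libraries lay below every other library.

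Acly, which makes cytosolic acetyl-CoA from citrate, fell by 1.75-fold with the combination and 1.34-fold with FK506. Elovl6, which lengthens palmitate, fell by 2.60-fold and 1.60-fold, the latter at an adjusted p of 0.0435 in edgeR that passed in only 3 of 12 fits that left out 1 library. Mid1ip1, a partner of acetyl-CoA carboxylase, fell by 2.45-fold and 2.04-fold. Acss2, which makes acetyl-CoA from acetate, was the one gene whose mean was not lowest with the combination. It measured 5.80, 3.02 and 3.09 FPKM with anti-CD3 alone, 1.67, 1.90 and 2.13 with L. acidophilus, 1.90, 1.43 and 1.59 with FK506, and 2.27, 1.45 and 1.51 with the combination, so that each treated group lay below anti-CD3 alone and the treated groups overlapped. The log2 fold change of Acss2 was -1.15 ± 0.28 (SE, adjusted p = 0.104) with L. acidophilus, -1.40 ± 0.29 (SE, adjusted p = 0.00598) with FK506 and -1.39 ± 0.28 (SE, adjusted p = 0.00204) with the combination in edgeR, and 0.01 ± 0.28 (SE, adjusted p = 1.00) from FK506 to the combination.

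The 3 largest falls of the 32 genes were those of desaturases. All 4 fell with the combination, in edgeR by at least 2-fold, and all 4 fell with FK506. Of all genes 10.8% fell by at least 2-fold with the combination and 8.81% fell with FK506. Their summed FPKM was 426 ± 77.2 (SD, n = 3) with anti-CD3 alone, 366 ± 71.4 with L. acidophilus, 149 ± 68.4 with FK506 and 36.4 ± 8.98 with the combination, which is 8.53% of the anti-CD3 level. Scd2 held most of this sum, and for the other 3 desaturases the combination was at 14.8% of the anti-CD3 level. The share of all 4 desaturases in the FPKM of the 32 genes went from 27.6% ± 3.12 with anti-CD3 alone to 6.68% ± 1.36 with the combination. Scd2, a stearoyl-CoA desaturase that makes oleate, was the most abundant of the 32 genes with anti-CD3 alone. It measured 395, 262 and 333 FPKM with anti-CD3 alone, 231, 327 and 335 with L. acidophilus, 105, 56.2 and 176 with FK506, and 12.7, 26.4 and 27.3 with the combination. L. acidophilus alone overlapped with anti-CD3, FK506 lay below both, and the combination below FK506, at -4.11 ± 0.42 (SE, adjusted p = 2.49e-05) on the log2 scale in edgeR, a fall of 17.3-fold. Without Scd2 the summed FPKM of the remaining genes with the combination was 43% of the anti-CD3 level. Scd1, its neighbour and close relative, measured 48.6, 31.3 and 37.7 FPKM with anti-CD3 alone, 15.2, 28.97 and 29.8 with L. acidophilus, 17.9, 7.55 and 15.5 with FK506, and 3.09, 4.08 and 3.98 with the combination. All 9 treated libraries lay below anti-CD3 alone, L. acidophilus and FK506 overlapped, and the combination lay below both. It fell by 12.2-fold (adjusted p = 1.82e-05, edgeR).

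Fads2, the delta-6 desaturase that begins the synthesis of long polyunsaturated fatty acids, had the largest difference of the 32 genes. It measured 40.8, 39.03 and 38.7 FPKM with anti-CD3 alone, 20.4, 31.9 and 30.5 with L. acidophilus, 11.1, 4.18 and 11.5 with FK506, and 0.841, 1.25 and 1.15 with the combination. The 4 groups did not overlap, and the 3 combination libraries held 177 to 188 counts, the lowest of any of the 32 genes in any library. The log2 fold change of Fads2 was -0.60 ± 0.31 (SE, adjusted p = 0.385) with L. acidophilus, -2.25 ± 0.32 (SE, adjusted p = 0.000856) with FK506 and -5.41 ± 0.38 (SE, adjusted p = 5.90e-06) with the combination in edgeR, the last a fall of 42.4-fold. Over the alternative runs the combination value of Fads2 ranged from -5.515 to -4.289. Fads1, the delta-5 desaturase that acts after it, fell by 2.17-fold with the combination and 1.42-fold with FK506 on the scaled counts of edgeR. Its mean FPKM, which carries no such scaling, was 17.8 with anti-CD3 alone and 9.46 with the combination, less than a 2-fold difference, and without the scaling factors the log2 fold change was -0.91. All 4 genes lie on chromosome 19 in RefSeq coordinates of GRCm38.p6. Fads2 (10062765 to 10101503) and Fads1 (10182877 to 10196874) are 81373 bases apart, and Scd2 (44293676 to 44306864) and Scd1 (44394450 to 44407709) are 87585 bases apart.

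Most of the 32 genes were also lower with FK506 alone. The comparisons of FK506, of L. acidophilus and of the combination with anti-CD3 alone share the anti-CD3 libraries. Against anti-CD3 alone 25 of the 32 genes fell and none rose in edgeR, where 8.81% of all genes fell. The median log2 fold change was -0.68, beside -0.0017 for all genes. A fall of at least 2-fold was found for Pmvk, Mvd, Fdps, Lss, Acss2, Mid1ip1, Scd1, Scd2 and Fads2, 9 of 32 against 4.12% of all genes. The genes that did not pass were Idi1, Sqle, Ebp, Sc5d, Dhcr7, Scap and Fasn. Every FK506 library lay below every anti-CD3 library for 22 genes, against 12% of all genes. Without FK506 replicate 2, the lowest library of its group for most of these genes, 18 fell, and 17 with replicates 2 and 3 alone. By limma on log2(FPKM + 1) 20 fell, and the calls lost were those of Mvk, Srebf2, Stard4, Acaca and Elovl6. The B cell markers were at their highest in this group, at 235 to 477 FPKM, and their part in these values was not tested.

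L. acidophilus alone gave values below anti-CD3 that did not pass the test. None of the 32 genes was called in either direction in edgeR, where 0.0509% of all genes fell, and 14 of the 32 had an unadjusted p under 0.05, as did 14.8% of all genes. The median log2 fold change was -0.28 and 31 of the 32 values were below 0, Scap being the exception. The lowest adjusted p was 0.0619, for Mvd at -0.94 ± 0.19 (SE). Every L. acidophilus library lay below every anti-CD3 library for Acat2, Mvk, Mvd, Fdps, Lss, Insig1, Acly, Acss2, Mid1ip1, Scd1, Fads1 and Fads2, 12 of 32 against 6.03% of all genes. DESeq2 called 7 of the 32, namely Acat2, Mvk, Mvd, Fdps, Fdft1, Lss and Acss2, and 1112 genes in all where edgeR called 54, and limma on log2(FPKM + 1) called none, with 8 at an unadjusted p under 0.05. Without anti-CD3 replicate 3 edgeR called Acat2, Mvd and Fdps, among 391 genes in all. Without anti-CD3 replicate 1, or without L. acidophilus replicate 1, it called none of the 32, and 9 had an unadjusted p under 0.05. With replicates 2 and 3 alone it also called none, and 8 had an unadjusted p under 0.05. The replicate block, which pairs these libraries, left the count at 0.

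The combination was then set against each single treatment. Against FK506 alone 23 of the 32 genes fell in edgeR and none rose, against 10.9% of all genes that fell, with a median log2 fold change of -0.76. A fall of at least 2-fold was found for Idi1, Fdps, Sqle, Lss, Hsd17b7, Acaca, Fasn, Scd1, Scd2 and Fads2, 10 of 32 against 3.6% of all genes. The genes that did not pass were Msmo1, Ebp, Sc5d, Dhcr7, Srebf2, Scap, Stard4, Acss2 and Mid1ip1, and of the regulators Insig1 fell (-0.77 ± 0.12, adjusted p = 0.00136). DESeq2 also called Dhcr7 and Srebf2 lower, 25 in all, and edgeR called Srebf2 when anti-CD3 replicate 1 or 2 was left out (adjusted p = 0.0465 and 0.0317). Every combination library lay below every FK506 library for 24 of the 32, against 17.6% of all genes. The count of calls was 17 without FK506 replicate 3, and of 12 fits that each left out 1 library, the call was lost in 9 for Mvk, 6 for Elovl6, 5 each for Pmvk and Mvd, 3 each for Tm7sf2 and Acly, and 1 for Hmgcs1. From FK506 to the combination 7 of 9 B cell markers fell, 6 of 7 myeloid markers rose, 3 of 8 CD4 T cell markers rose with the other 5 not passing, and 7 of 8 proliferation genes fell, and the part of these in the result was not tested.

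Against L. acidophilus alone 29 of the 32 genes fell with the combination and none rose, against 17% of all genes that fell, with a median log2 fold change of -1.08. A fall of at least 2-fold was found for 19 of them, against 6.64% of all genes. Ebp, Dhcr7 and Acss2 did not pass. The calls of Sc5d, Mvk and Msmo1 were lost in 5, 4 and 2 of 12 fits that left out 1 library, and 26 genes were called without the library scaling factors, where Msmo1, Sc5d and Scap were lost. From L. acidophilus to the combination 9 of 9 B cell and 7 of 7 myeloid markers rose and 7 of 8 proliferation genes fell, and the part of these in the result was not tested. The falls of Fads2, Scd2 and Scd1 were again the largest, at -4.81 ± 0.37, -3.88 ± 0.42 and -2.86 ± 0.34 (log2, SE). These comparisons share the combination libraries with the comparison against anti-CD3 alone and do not count as separate evidence.

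Whether L. acidophilus acted differently with FK506 than without it was tested as the difference of the 2 effects on the log2 scale. Of the 32 genes 6 had a more negative effect of L. acidophilus with FK506 at an adjusted p under 0.05 and none a more positive one, against 3% of all genes that were more negative. They were Fads2 (-2.55 ± 0.45, adjusted p = 0.0130), Scd2 (-2.23 ± 0.54, adjusted p = 0.0401), Fasn (-1.30 ± 0.19, adjusted p = 0.00738), Acaca (-0.96 ± 0.24, adjusted p = 0.0436), Idi1 (-0.94 ± 0.17, adjusted p = 0.0135) and Sqle (-0.93 ± 0.16, adjusted p = 0.0123) in edgeR. For Fasn, L. acidophilus moved the level by -0.03 without FK506 and by -1.33 with it, and for Idi1 by -0.14 and -1.08. For Fads2 the effects were -0.60 and -3.15, and over the alternative runs their difference ranged from -2.896 to -1.628. Of the other 26 genes 8 had an unadjusted p under 0.05 and Acss2 had the most positive value (1.16 ± 0.40, adjusted p = 0.130). DESeq2 called 9 genes in this test, 8 more negative and 1, Acss2, more positive (1.20, adjusted p = 0.0325), out of 2380 called over all genes where edgeR called 1025. By limma on log2(FPKM + 1) 4 were called, without Acaca and Scd2, and edgeR without the library scaling factors lost Acaca. The calls for Acaca and Scd2 were each lost in 9 of 12 fits that left out 1 library, with adjusted p up to 0.102 and 0.0949. Without FK506 replicate 2 there were 11 calls, the 6 and Cyp51, Nsdhl, Hsd17b7, Insig1 and Scd1, and without anti-CD3 replicate 3 there were 4. With replicates 2 and 3 alone only Fasn was called. Of the 8 proliferation genes 5 were also more negative in this test, and their part in the result was not tested.

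**Figure D5:**
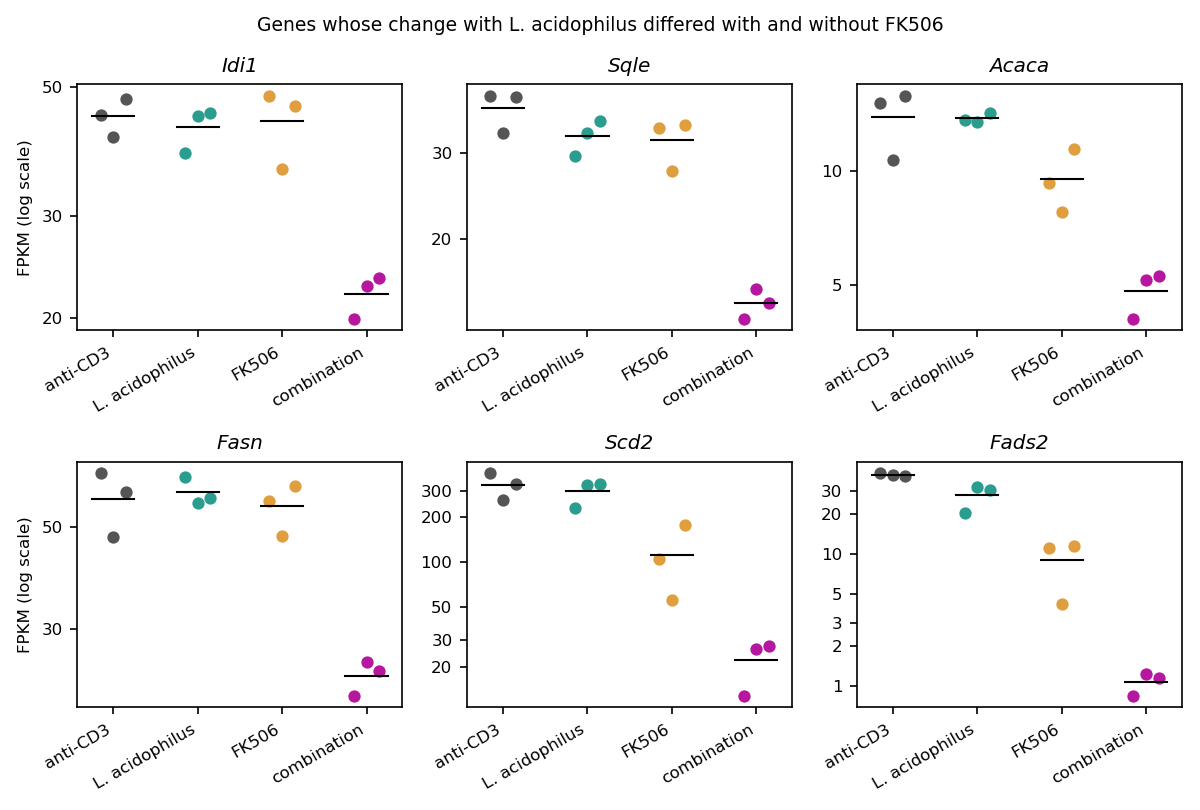
FPKM (y axis, log scale) of the 6 genes whose response to L. acidophilus depended on FK506 in the test of the difference, for the 12 libraries (points, by group on the x axis) with group means as lines. In Idi1, Sqle and Fasn the first 3 groups overlap and only the combination is low, while Scd2 and Fads2 step down from FK506 to the combination.

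Other genes of the same pathways, listed by role, moved in part. On the sterol side 5 of 13 genes fell with the combination against anti-CD3 alone and 1 rose, where 21.8% of all genes fell. Erlin1, which takes part in the sterol-regulated degradation of membrane proteins, and Tmem97, the sigma-2 receptor that binds sterols, had the lowest p, with log2 fold changes of -1.31 ± 0.14 (SE, adjusted p = 2.53e-05) and -2.83 ± 0.35 (SE, adjusted p = 7.40e-05) in edgeR. Tmem97 measured 31.98, 90.7 and 34.8 FPKM with anti-CD3 alone and 8.52, 8.05 and 9.24 with the combination, with anti-CD3 replicate 2 far above the others. The gene that rose was Mbtps1, the protease that first cuts the SREBP factors (0.61 ± 0.10, adjusted p = 0.000395), named here after its value was seen. On the fatty acid side 8 of 12 genes fell and 1, Acacb, the mitochondrial acetyl-CoA carboxylase, rose, also named after its value was seen (1.01 ± 0.26, adjusted p = 0.00816). Aacs, which activates acetoacetate for lipid synthesis, Slc25a1, the carrier that exports citrate from mitochondria, and Acsl3, an acyl-CoA synthetase, had the lowest p, at -1.56 ± 0.13 (SE, adjusted p = 8.52e-06), -1.31 ± 0.13 (SE, adjusted p = 2.33e-05) and -1.62 ± 0.17 (SE, adjusted p = 2.33e-05) in edgeR. With FK506 alone 4 of 13 fell and 1 rose on the sterol side and 5 of 12 fell on the fatty acid side, where 8.81% of all genes fell, and with L. acidophilus alone none was called on either side. Aacs was the one of these 25 genes called in the test of the effect of L. acidophilus with and without FK506 (-0.81 ± 0.17, adjusted p = 0.0257).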

How the data were processed

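RNA sequencing of 12 libraries was analysed from one deposited table of 45777 genes, with estimated counts, FPKM and TPM for each library. The submitters' processing notes name bcl2fastq 2.20.0, Trimmomatic, HISAT2 2.1.0, StringTie 2.1.3b and the builds mm10 and GRCm38. The authors' estimated counts are whole numbers and were used as deposited. The FPKM and TPM values were made by the authors, and the quantile normalization named in the methods is not visible in the FPKM totals, which differ between libraries. Because FPKM and TPM are shares of a library, a change in a few abundant genes moves all others.

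The 23585 genes counted in 3 or more libraries were tested with edgeR 4.0.16 in R 4.3.3 (glmQLFit and glmQLFTest, TMM scaling, all 12 libraries with 1 mean per group) and Benjamini-Hochberg adjustment over all genes tested, and a call is an adjusted p under 0.05. The standard error is the size of the log2 fold change over the square root of F. FPKM was used for levels. The script was tested on simulated data. The 32 genes, the marker lists and the other pathway genes were chosen with earlier results of these data known. Values in every library are given for the 12 genes with the largest called change with the combination against anti-CD3 alone, for genes called in the test of the effect of L. acidophilus with and without FK506, and for the regulators, and of the other pathway genes the 3 with the lowest p on each side are named, except for 1 that is not reported here. Acss2 and Ebp were added to these after their values were seen.

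Alternatives were DESeq2 1.42.0, no TMM factors, other filters, limma 3.58.1 on log2(FPKM + 1) and log2(FPKM + 0.1), a replicate block, the 6 libraries of each pair of groups, a 2-fold limit and each library left out. Replicates 2 and 3 alone, summed TPM and the desaturases without Scd2 were chosen after seeing the data. Replicate numbers were checked by correlating the deviations of same-numbered libraries from their group means over 10775 genes. All 3 pairs exceeded 0.1 for L. acidophilus against anti-CD3 (0.578, 0.383 and 0.359), each best with its own number, so the pairing there comes from the data and not from the labels. They also did for the combination against L. acidophilus (0.235, 0.132 and 0.200). There L. acidophilus replicates 2 and 3 correlated better with a combination library of another number, so pairing is unclear. For the combination against FK506 each own number was best (0.304, 0.064 and 0.208). Replicate libraries were not duplicates (chi-square per degree of freedom between 4.61 and 205). Replicates 2 and 3 were far closer to each other than to replicate 1 in the combination group (4.61 against 78.7 and 86.8). The same held with L. acidophilus (9.57 against 60.2 and 59.5). Promoters came from RefSeq (GRCm38.p6) and figures were drawn with matplotlib 3.10.9.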

Additional observations from a re-analysis of the deposited data

Results flagged for a closer look

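For 6 of the 32 genes the effect of L. acidophilus in the presence of FK506 differed from its effect in the absence of FK506 by edgeR's test of that difference. All 6 were more negative with FK506, against 3% of all genes tested. The difference of the effects was -2.55 for Fads2, -2.23 for Scd2, -1.30 for Fasn, -0.96 for Acaca, -0.94 for Idi1 and -0.93 for Sqle on the log2 scale. In all 6 genes the 3 combination libraries lay below the other 9 libraries. This describes the same libraries that the test of the difference used and is not separate evidence. The calls for Acaca and Scd2 were each lost in 9 of 12 fits that left out 1 library, and also by limma on log2(FPKM + 1). With replicates 2 and 3 alone edgeR called only Fasn.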

How the results depend on the processing

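No value of the 32 genes that was called changed sign under any alternative run. With L. acidophilus against anti-CD3 alone, where none was called, DESeq2 called 7, a filter of a count above 0 in at least 1 library gave 1, and edgeR's own filter (filterByExpr) gave 2, while the calls over all genes went from 54 to 1112, 115 and 126. With a limit of 2-fold the calls were 9 for FK506 against anti-CD3 alone, 10 for the combination against FK506, 19 for the combination against L. acidophilus, and 3 for the difference of the effects of L. acidophilus. That difference was called for 6 genes without this limit and for 1 with replicates 2 and 3 alone. The level left with the combination, 35.2% as summed FPKM, was 40.2% from the mean of log2(FPKM + 1) and 39.4% as summed TPM. With 1 library left out the calls ranged from 30 to 31 for the combination and 18 to 25 for FK506 against anti-CD3 alone, 0 to 3 for L. acidophilus, 17 to 25 and 26 to 30 for the combination against FK506 and against L. acidophilus, and 4 to 11 for the difference of effects. Without TMM factors the median of all genes rose by 0.205 for the combination against anti-CD3 alone, and 29 of the 32 were called. With the replicate block 32 were called there, Ebp (-0.34) being added, 25 for FK506, 23 for the combination against FK506, with Mvk lost and Dhcr7 added, and 6 for the difference of effects. The cause of these shifts was not tested. Depth did not keep any of the 32 genes from being tested, since the lowest count was 177, and the number of libraries, 3 per group, limits the precision.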
